A study of Mus musculus with 12 samples.

Results

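The subject is the set of nuclear-encoded subunits of the mitochondrial respiratory chain and ATP synthase, followed by RNA sequencing in 12 mouse melanoma tumors. Members were all protein-coding genes whose mouse symbol begins with Ndufa, Ndufb, Ndufc, Ndufs or Ndufv and a number (complex I), is Sdha, Sdhb, Sdhc or Sdhd (complex II), begins with Uqcr (complex III), begins with Cox4, Cox5, Cox6, Cox7 or Cox8 (complex IV), or begins with Atp5 (complex V, ATP synthase). The symbols and biotypes came from GENCODE M21 on the mouse build GRCm38. This gave 85 genes, of 55487 gene identifiers in the counts and 21897 protein-coding ones: 37 in complex I, 4 in complex II, 8 in complex III, 18 in complex IV and 18 in complex V. The rule used symbols only and no measured value, although it was chosen with earlier results of these data known. The rule follows names: Ndufa4 and Ndufa4l2 count here under complex I, although Ndufa4 protein is now known as a component of complex IV, and the Cox7a2l product is known for joining complexes III and IV into supercomplexes.

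Complexes I to IV pass electrons from NADH and succinate to oxygen and pump protons across the inner mitochondrial membrane, except complex II, which pumps none. ATP synthase uses the returning protons to make ATP. A few catalytic subunits are encoded by mitochondrial DNA, while the genes described here lie in the nucleus and their products are imported. Several complex IV subunits exist as a form made in most tissues and a form restricted to heart and skeletal muscle, lung or testis. Oxidative metabolism in melanoma is known to be set in part by regulators of mitochondrial biogenesis such as PGC-1alpha, encoded by Ppargc1a.

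The tumors fell into 6 that carried floxed Arf6 alleles in addition to the BrafCA and floxed Cdkn2a alleles, named Arf6-null in their titles, and 6 with BrafCA and floxed Cdkn2a alone, called wild type here for their Arf6 gene. BrafCA is a conditional allele of activated Braf, so all 12 tumors share the oncogene and the conditional loss of the Cdkn2a tumor suppressor. ARF6 is a small GTPase of endomembrane and surface traffic. The labels name no Cre driver, age, sex or delivery, and it is not stated if each tumor is from its own animal, so a p-value here measures the spread between these samples.

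Libraries held 21007954 to 45688253 counts in Arf6-null tumors and 22211738 to 30326419 counts in wild type tumors, a difference in depth with an exact two-sided permutation p = 0.0455. Levels are given as CPM, read counts brought to 1 common total per library after TMM scaling. Arf6 itself averaged 18.3 ± 3.73 CPM in Arf6-null tumors and 111 ± 24.9 CPM in wild type tumors (SD, n = 6 each), and the groups did not overlap. Of the defining pigment cell genes, Mlana had no count in any library, Tyr had at most 2 counts, Dct and Tyrp1 at most 1, and Pmel 10 to 50, so the pigment genes were at or near 0 in tumors labelled melanoma. Sox10, also on the melanocyte list, was low too, at 0.0297 to 0.532 CPM in Arf6-null tumors and 0 to 1.23 CPM in wild type tumors. The remaining genes of that list, Mitf and Kit, were present. Mitf had 8.95 to 30.1 CPM in Arf6-null tumors and 10.1 to 28.3 CPM in wild type tumors. Kit had 1.22 to 8.57 CPM in Arf6-null tumors and 9.59 to 23.7 CPM in wild type tumors, without overlap (edgeR adjusted p = 0.0629). The summed level of 20 skeletal muscle markers ran over 9.64 to 103 CPM in Arf6-null tumors and 41.7 to 4299 CPM in wild type tumors, with wild type replicates 3, 4 and 5 highest at 3184, 2042 and 4299 CPM. The Y-linked gene Eif2s3y was at 65.4 to 74.5 CPM in 5 Arf6-null tumors and 0.235 CPM in replicate 6, against 59.9 and 65.0 CPM in wild type replicates 2 and 4, 5.57 CPM in replicate 1 and at most 0.0347 CPM in replicates 3, 5 and 6, so Y-linked expression was not balanced between the genotypes. With Y-linked expression as a covariate edgeR called 30 genes, against 186 without it. These are whole tumors, in which fewer cells of a type and less RNA per cell cannot be told apart.

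Of the 85 subunit genes, 81 passed the filter on low counts and were tested with edgeR's quasi-likelihood test, with adjustment over all 16225 genes tested. The 4 others were Cox7b2, Cox8b, Cox8c and a second identifier of Atp5o. Ndufa7 alone passed an adjusted p of 0.05, higher in Arf6-null tumors, and no subunit passed it as lower. Over all tested genes 95 were called higher, which is 0.586%, and 91 lower, which is 0.561%, so 1 of 81 subunits stood near the background share. At an unadjusted p under 0.05, 20 of 81 subunits were higher and 1 was lower, beside 11.0% of all tested genes higher and 12.4% lower. The count of calls also moved with the tool: DESeq2 called 11 subunits higher and 2 lower, beside 5.21% and 6.63% of the genes it tested, and limma-voom called 3 higher and 0 lower, beside 2.98% and 2.76%.

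Differences between the genotypes were small across the family. The log2 fold change, Arf6-null over wild type, was positive for 64 of 81 subunits (79.0%), against 47.2% of all tested genes. Its median over the subunits was 0.10, against -0.03 over all tested genes. The change was under 0.5 in size on the log2 scale for 77 of the 81, beside 11830 of all 16225 tested genes. By complex the median log2 fold change was 0.09 over 37 genes of complex I, 0.11 over 4 of complex II, 0.15 over 8 of complex III, 0.13 over 15 of complex IV and 0.05 over 17 of complex V. The log2 fold changes ran over -0.17 to 0.51 in complex I, -0.08 to 0.29 in complex II, -0.07 to 0.46 in complex III, -4.24 to 0.80 in complex IV and -0.39 to 0.50 in ATP synthase. In 2 subunits, Ndufv3 and Uqcrc1, every Arf6-null library lay above every wild type library (2.47% of those tested, beside 1.15% of all tested genes), and in 0 every Arf6-null library lay below (beside 1.21%).

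**Figure D1:**
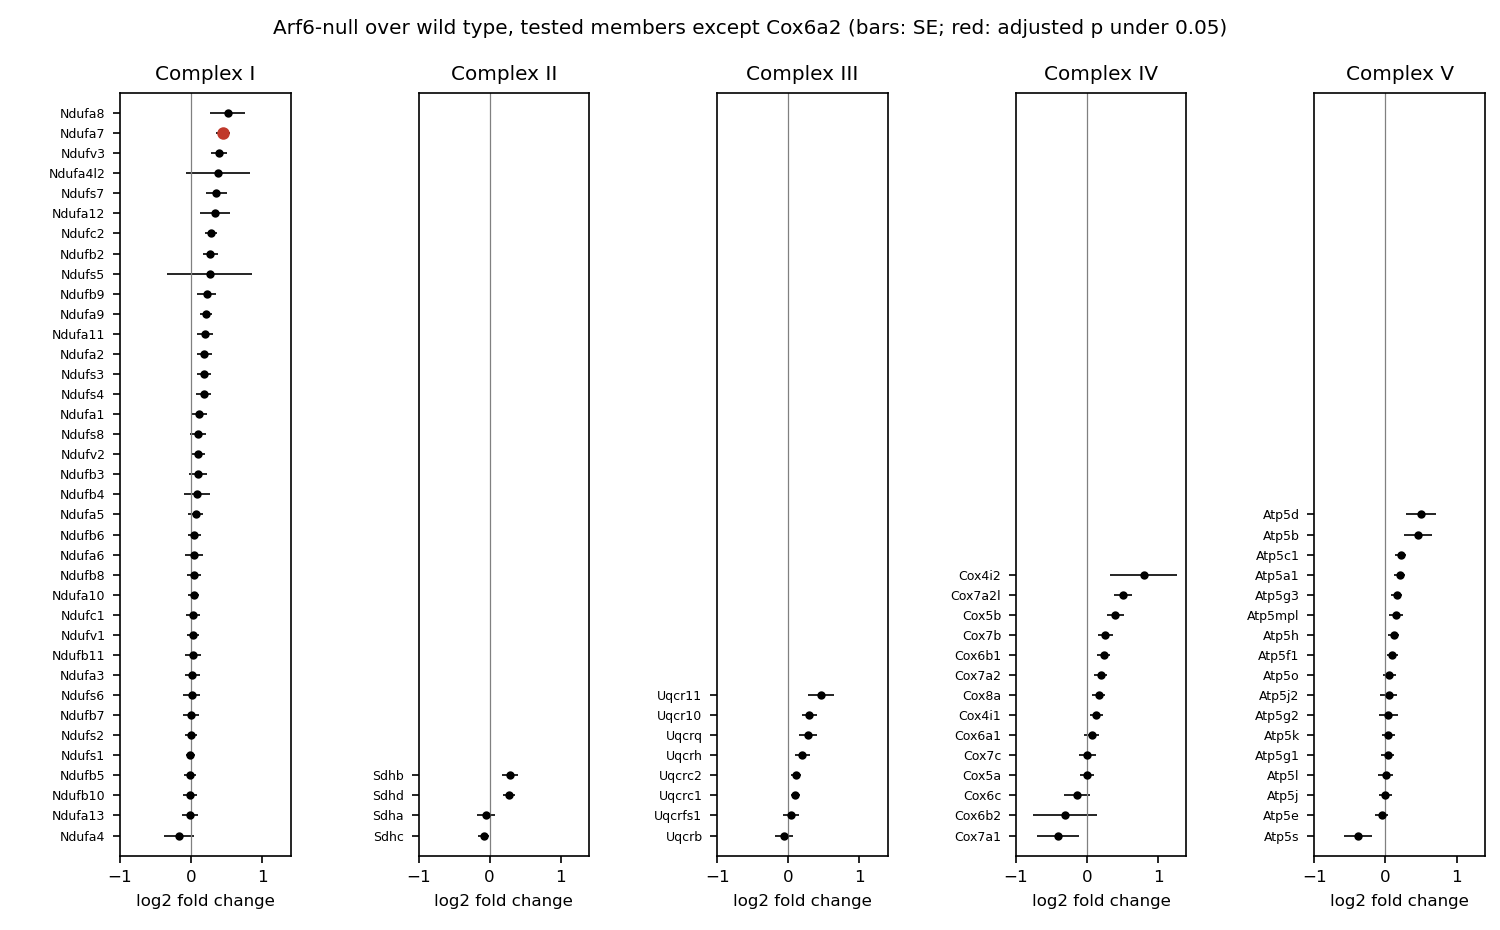
Log2 fold change, Arf6-null over wild type, of the tested subunits by complex, with bars for the standard error, Cox6a2 left out at -4.24, and Ndufa7, the gene past adjusted p 0.05, in red. Most points lie a little to the right of 0, and those of complex IV spread the most.

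Levels were steady from tumor to tumor for most of the family. Among the 73 tested subunits with a mean of at least 10 CPM, the highest library was a median of 1.47-fold above the lowest, and 64 stayed under 2-fold. The exceptions were Atp5b, Atp5d, Ndufa12, Ndufs7 and Uqcr11 of chromosome 10, and Ndufa4, Ndufa8, Cox6c and Cox7a2l. The muscle isoforms described below fell outside these 73 subunits. Per kilobase of exon, the median level over the 12 tumors was highest for Cox8a in complex IV at 299 CPM per kb, for Atp5b in ATP synthase at 254, for Uqcrh in complex III at 144, for Ndufa2 in complex I at 138 and for Sdhd in complex II at 106. The lowest tested subunits per length were Cox6a2 in complex IV at 1.41 CPM per kb, Atp5l in ATP synthase at 2.61, Ndufa4l2 in complex I at 3.70, Sdhc in complex II at 23.2 and Uqcrc1 in complex III at 34.9. These lengths are unions of all annotated exons, and genes with long rarely used exons come out low.

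The subunits of complex I oxidise NADH in a matrix arm and pump protons in a membrane arm. Ndufa7, an accessory subunit of the matrix arm, had 85.1 to 115 CPM in Arf6-null tumors with a median of 108, against 67.5 to 86.1 CPM in wild type tumors with a median of 77.5. Arf6-null replicate 5 was the lowest of its group and the only one to fall inside the wild type range. The log2 fold change was 0.45 with a standard error of 0.095 (edgeR adjusted p = 0.0451). The call was lost on leaving out any one of Arf6-null replicates 1, 2, 3 and 4 or wild type replicates 1, 3, 4 and 6, with the log2 fold change at 0.42 to 0.51 over the leave-one-out fits. With Y-linked expression as a covariate the log2 fold change was 0.42 and the call was lost (edgeR adjusted p = 0.118). Over 22 alternatives its adjusted p ran over 0.000317 to 0.242.

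Ndufa7 lies at chr17:33824572-33838317 on the plus strand of GRCm38, near the major histocompatibility complex, and no exon of another annotated gene overlaps its own. Of 145 other tested genes within 2 Mb of it, 5 were called (3.45%, beside 1.15% of all tested genes), namely Gtf2h4, Rps18, H2-Q5, H2-Eb1 and Zfp799, which were looked up after the call of Ndufa7 was known. RefSeq on GRCm38.p6 gives 2 promoter windows for it, and the one whose start is the GENCODE start of the gene is shown because this is the one called subunit gene. It covers chr17:33824322-33824621 on the plus strand, 250 bases before to 50 after the start, and holds none of the 3 motifs searched below, so it has no capitals.
Ndufa7: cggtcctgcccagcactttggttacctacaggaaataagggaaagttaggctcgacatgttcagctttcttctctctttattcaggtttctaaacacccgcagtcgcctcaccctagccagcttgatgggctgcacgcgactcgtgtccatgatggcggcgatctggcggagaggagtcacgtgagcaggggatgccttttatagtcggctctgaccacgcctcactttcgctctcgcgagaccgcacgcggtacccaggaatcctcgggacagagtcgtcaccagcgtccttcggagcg

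Ndufv3, an accessory subunit beside the NADH-binding site, had 69.0 to 86.0 CPM in Arf6-null tumors with a median of 72.2, against 46.5 to 67.7 CPM in wild type tumors with a median of 55.2. The groups did not overlap, and the gap between them was narrow, with wild type replicates 5 and 6 close under the Arf6-null libraries. Its log2 fold change was 0.39 ± 0.11 (SE) and missed the threshold (edgeR adjusted p = 0.0752). Ndufc2, of the membrane arm, named for its adjusted p under 0.1 after the values were seen, had 54.4 to 75.05 CPM in Arf6-null tumors and 53.8 to 57.3 CPM in wild type tumors. In Ndufc2 5 of 6 Arf6-null libraries lay above all wild type libraries (log2 fold change 0.28, edgeR adjusted p = 0.0795).

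The core subunits of the NADH-oxidising module differed between genotypes by less than the spread between libraries. Ndufv1, which binds NADH, averaged 82.4 ± 8.95 CPM in Arf6-null tumors and 80.8 ± 2.68 CPM in wild type tumors. Ndufs1, which carries iron-sulfur clusters, averaged 91.1 ± 5.28 CPM in Arf6-null tumors and 91.6 ± 4.45 CPM in wild type tumors. Their log2 fold changes were 0.03 and -0.01 with standard errors of 0.081 and 0.068 (edgeR adjusted p = 0.860 and 0.953). Ndufa2, an accessory subunit of the same module and the highest of complex I per length, averaged 85.6 ± 11.5 CPM in Arf6-null tumors and 75.3 ± 7.19 CPM in wild type tumors (log2 fold change 0.18, edgeR adjusted p = 0.305).

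A pair of complex I genes, picked out after their values were seen, varied widely between tumors. Ndufs5, whose product faces the intermembrane space, had 1.256 and 1.55 CPM in Arf6-null replicates 1 and 4 and 1.59, 1.92 and 1.61 CPM in wild type replicates 1, 2 and 5, while the other 7 libraries had 5.72 to 8.55 CPM. No library lay between these levels, and both genotypes were on both sides. Ndufa8, another subunit facing the intermembrane space, had 208, 192, 92.7, 117, 117 and 201 CPM in Arf6-null replicates 1 to 6, against 82.8, 75.8, 105, 97.3, 149 and 140 CPM in wild type replicates 1 to 6. In Ndufa8 3 Arf6-null libraries exceeded every wild type library and the other 3 lay among them (log2 fold change 0.51, the highest of complex I, edgeR adjusted p = 0.226).

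Complex II, succinate dehydrogenase, links the citric acid cycle to the chain, and edgeR called none of its 4 subunits. At an unadjusted p under 0.05, 2 of them were higher, beside 11.0% of all tested genes. DESeq2 called Sdhd higher, beside 5.21% of the genes it tested, and limma-voom called none. Sdhd, a membrane anchor, had 127 to 171 CPM in Arf6-null tumors with a median of 152, against 117 to 132 CPM in wild type tumors with a median of 127. In Sdhd 5 of 6 Arf6-null libraries lay above the wild type range, and replicate 5 lay inside it (log2 fold change 0.27, SE 0.081, edgeR adjusted p = 0.0865). Sdhb, the iron-sulfur subunit, averaged 142 ± 16.5 CPM in Arf6-null tumors and 116 ± 14.7 CPM in wild type tumors (log2 fold change 0.29, edgeR adjusted p = 0.139). Sdhc, the other anchor, averaged 72.9 ± 5.02 CPM in Arf6-null tumors and 77.3 ± 5.31 CPM in wild type tumors (log2 fold change -0.08, edgeR adjusted p = 0.525). Sdha, the flavoprotein, averaged 186 ± 14.6 CPM in Arf6-null tumors and 192 ± 38.8 CPM in wild type tumors, where replicate 4 alone reached 265 CPM (log2 fold change -0.05, edgeR adjusted p = 0.845).

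Complex III passes electrons to cytochrome c. Uqcrc1, a large core subunit, had 144 to 154 CPM in Arf6-null tumors and 132 to 144 CPM in wild type tumors, and although the groups did not overlap, the lowest Arf6-null library at 144.4 CPM and the highest wild type library at 144.2 CPM nearly met. Its log2 fold change was 0.10 with a standard error of 0.061 (edgeR adjusted p = 0.361). Uqcr10, a small accessory subunit, had 67.4 to 99.6 CPM in Arf6-null tumors and 62.3 to 78.1 CPM in wild type tumors, with Arf6-null replicate 5 alone inside the wild type range (log2 fold change 0.30, edgeR adjusted p = 0.112). Uqcrh, the hinge subunit, had 165 to 248 CPM in Arf6-null tumors and 155 to 199 CPM in wild type tumors, with overlapping groups (log2 fold change 0.20, edgeR adjusted p = 0.291). Uqcrfs1, the Rieske iron-sulfur subunit, averaged 81.1 ± 6.51 CPM in Arf6-null tumors and 79.1 ± 13.2 CPM in wild type tumors (log2 fold change 0.04, edgeR adjusted p = 0.872).

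Complex IV, cytochrome c oxidase, reduces oxygen. Cox7a2l came closest to the threshold in complex IV, with 111 to 154 CPM in Arf6-null tumors and a median of 136, against 75.8 to 118 CPM in wild type tumors and a median of 93.7. In Cox7a2l 4 of 6 Arf6-null libraries lay above every wild type library, and replicates 3 and 5 lay below wild type replicate 5 (log2 fold change 0.51, SE 0.13, edgeR adjusted p = 0.0629). Cox5b, a matrix-side subunit named for its adjusted p under 0.1 after the values were seen, averaged 118 ± 19.2 CPM in Arf6-null tumors and 89.4 ± 9.44 CPM in wild type tumors, and Arf6-null replicate 5 alone lay inside the wild type range (log2 fold change 0.40, edgeR adjusted p = 0.0843). The 3 genes Ndufa7, Cox7a2l and Ndufv3 all lie on chromosome 17, which was noticed after their values were known. The 6 tested subunit genes there had a median log2 fold change of 0.29, against -0.02 for 808 other genes of the chromosome. Of those 808 genes, 16 were called (1.98%), beside 1.15% of all tested genes.

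**Figure D2:**
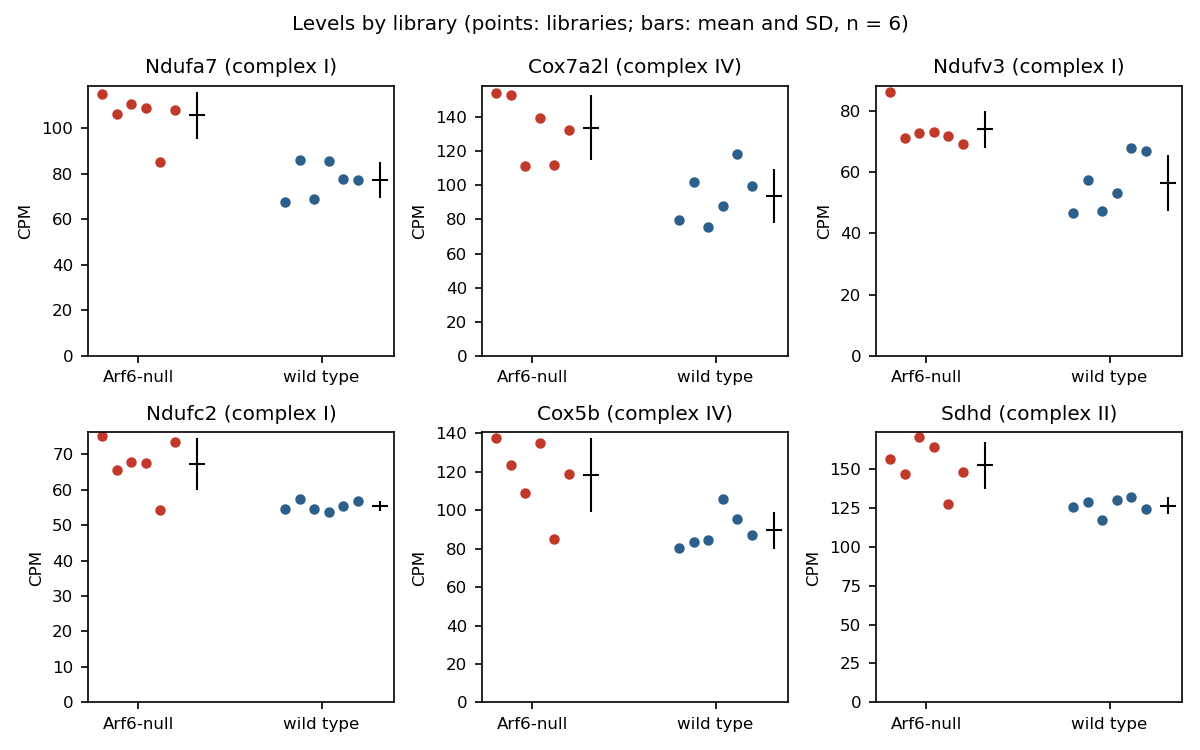
CPM in each of the 6 Arf6-null and 6 wild type libraries for the 6 subunits with an adjusted p under 0.1 other than Cox6a2, with the mean and SD beside the points. The Arf6-null points lie higher on average in each panel, and the groups are apart only in Ndufv3.

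The widest variation in the family lay in the muscle isoforms of complex IV. Cox6a2, the heart and skeletal muscle form of subunit 6A, had 0.0502, 0.943, 0.327, 0.958, 1.76 and 0.967 CPM in Arf6-null replicates 1 to 6, against 0.557, 0.364, 23.1, 14.1, 54.9 and 3.43 CPM in wild type replicates 1 to 6. The high values were in wild type replicates 3, 4 and 5, and wild type replicates 1 and 2 lay within the Arf6-null range. The log2 fold change was -4.24 with a standard error of 1.16 (edgeR adjusted p = 0.0722). Cox8b, the muscle form of subunit 8, was below the count filter and followed the same libraries, with at most 0.363 CPM in Arf6-null tumors, against 5.71, 3.58 and 7.05 CPM in wild type replicates 3, 4 and 5, the other 3 being at 0.902 CPM or lower.

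The summed muscle markers were highest in the same 3 wild type libraries, and all 20 of them had a negative log2 fold change. By edgeR 1 of the 20 was called lower, beside 0.561% of all tested genes. At an unadjusted edgeR p under 0.05 all 20 were lower, beside 12.4% of all tested genes. DESeq2 called 19 lower, beside 6.63% of the genes it tested, and limma-voom called 0, beside 2.76%. Without those 3 libraries the log2 fold change of Cox6a2 was -0.76 (edgeR adjusted p = 0.725), and with the muscle marker level as a covariate it was 0.76 (edgeR adjusted p = 0.600). Both are alternatives chosen after the data were seen. Beside its partner Cox6a1 and per length, Cox6a2 made up 0.0411% to 1.54% of the pair in Arf6-null tumors and 0.258% to 35.1% in wild type tumors. For Cox8b beside Cox8a the share was 0% to 0.323% in Arf6-null tumors and 0.0896% to 7.53% in wild type tumors. Cox7a1, the heart and muscle form of subunit 7A, did not share the pattern: it had 0.605 to 1.21 CPM in Arf6-null tumors and 0.659 to 2.05 CPM in wild type tumors, and its highest share beside Cox7a2 was 3.74%, in wild type replicate 3.

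**Figure D3:**
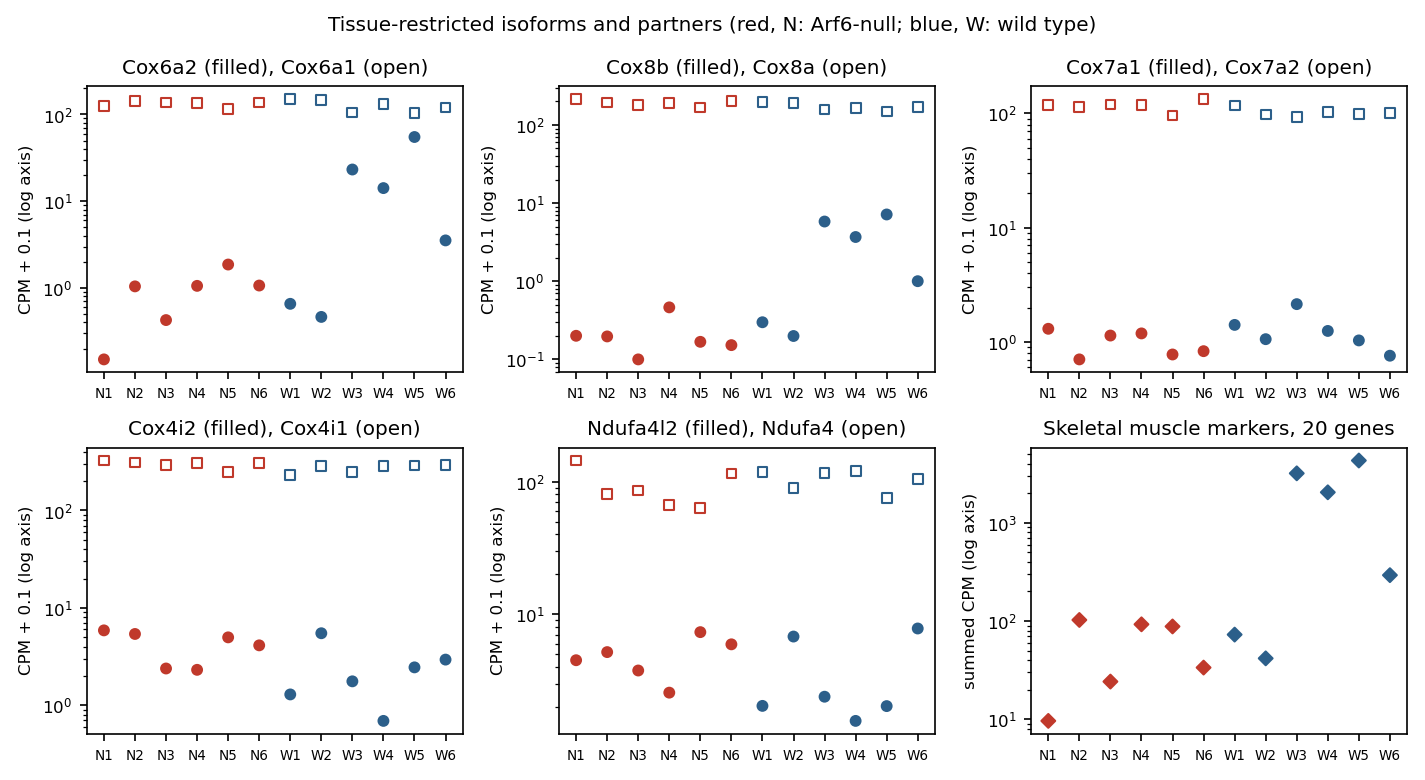
CPM plus 0.1 on a log axis for 5 tissue-restricted isoforms (filled) and their widely expressed partners (open) in each library, with the summed CPM of 20 skeletal muscle markers in the last panel, Arf6-null libraries N1 to N6 left of wild type libraries W1 to W6. Cox6a2 and Cox8b are highest in W3, W4 and W5, where the muscle markers are highest, while Cox6a1 and Cox8a stay within 105 to 215 CPM in all 12 libraries.

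The widely expressed partners varied less between libraries. Cox6a1 averaged 132 ± 9.44 CPM in Arf6-null tumors and 126 ± 19.6 CPM in wild type tumors, and Cox8a averaged 192 ± 16.7 CPM in Arf6-null tumors and 171 ± 18.7 CPM in wild type tumors. Cox4i1, the common form of subunit 4, averaged 299 ± 26.4 CPM in Arf6-null tumors and 273 ± 25.8 CPM in wild type tumors. Cox6b1 had 159 to 215 CPM in Arf6-null tumors and 149 to 181 CPM in wild type tumors, with 5 of 6 Arf6-null libraries above the wild type range (log2 fold change 0.23, edgeR adjusted p = 0.144). Cox7a2 averaged 116 ± 12.2 CPM in Arf6-null tumors and 102 ± 8.22 CPM in wild type tumors (log2 fold change 0.20, edgeR adjusted p = 0.209).

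Isoforms known from lung, from testis or from low oxygen were low in both genotypes. Cox4i2, the form of subunit 4 known from lung and low oxygen, had 2.21 to 5.78 CPM in Arf6-null tumors and 0.592 to 5.39 CPM in wild type tumors, with overlapping groups (log2 fold change 0.80, SE 0.47, edgeR adjusted p = 0.327). Ndufa4l2, a hypoxia-induced relative of Ndufa4, had 2.48 to 7.25 CPM in Arf6-null tumors and 1.48 to 7.74 CPM in wild type tumors (log2 fold change 0.38, edgeR adjusted p = 0.649). Ndufa4 had 63.5 to 144 CPM in Arf6-null tumors and 75.3 to 120 CPM in wild type tumors (log2 fold change -0.17, edgeR adjusted p = 0.654). The testis form Cox6b2 averaged 3.61 ± 2.29 CPM in Arf6-null tumors and 4.46 ± 1.35 CPM in wild type tumors, while the testis forms Cox7b2 and Cox8c had at most 3 and 0 counts in any library.

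Promoter windows of 300 bases, from RefSeq on GRCm38.p6, matched 66 of the subunit symbols. The search covered 3 motifs on both strands: CCGGAAG, the core bound by ETS factors such as GABP, the palindrome of nuclear respiratory factor NRF1 (GCGCA, any base, then GCGC), and CAGCTG, an E-box of the kind bound by muscle factors such as MyoD. They do not overlap one another in the windows below. A gene counted if any of its windows held the letters. The ETS letters were in 16 of 66 subunit genes (24.2%), against 9.93% of 27025 genes with a window. Those 27025 were not limited to protein-coding genes. The NRF1 letters were in 17 of 66 (25.8%), against 5.19%, with 6 of 13 genes in ATP synthase and 1 of 13 in complex IV. The E-box was in 6 of 66 (9.09%), against 18.3%. These were Cox8b, Atp5b, Ndufa8, Ndufb10, Ndufs5 and Ndufv2, of which only Cox8b is a muscle form. The muscle form Cox6a2 had no window. Whether the E-box bears on the muscle pattern was not tested. A match is a description of letters in the window and not a site shown to be bound.

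The following windows are shown for the muscle form Cox8b, for the common forms Cox8a and Cox6a1, for Cox7a1, which did not follow the muscle markers, and for Sdhd, a subunit close to the threshold. Capitals mark the 3 motifs. Cox8b covers chr7:140900397-140900696 on the minus strand and has 2 E-boxes; Cox8a covers chr19:7217567-7217866 on the minus strand and has 2 ETS matches. Cox6a1 covers chr5:115348909-115349208 on the minus strand with 2 NRF1 matches and 1 ETS match. Cox7a1 covers chr7:30183921-30184220 on the plus strand with none. Sdhd covers chr9:50603800-50604099 on the minus strand with 1 NRF1 match and 1 ETS match.
Cox8b: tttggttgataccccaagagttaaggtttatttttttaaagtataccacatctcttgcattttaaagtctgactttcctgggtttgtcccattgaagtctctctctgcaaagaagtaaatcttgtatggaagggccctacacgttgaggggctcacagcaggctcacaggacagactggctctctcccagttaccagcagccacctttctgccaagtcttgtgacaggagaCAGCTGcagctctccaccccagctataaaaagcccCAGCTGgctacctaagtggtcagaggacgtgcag
Cox8a: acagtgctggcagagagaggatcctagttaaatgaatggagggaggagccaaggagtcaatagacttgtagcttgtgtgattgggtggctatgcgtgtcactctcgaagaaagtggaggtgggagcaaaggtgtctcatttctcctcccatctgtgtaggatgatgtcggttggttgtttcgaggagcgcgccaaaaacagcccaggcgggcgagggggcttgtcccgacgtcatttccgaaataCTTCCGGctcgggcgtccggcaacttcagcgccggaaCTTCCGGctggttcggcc
Cox6a1: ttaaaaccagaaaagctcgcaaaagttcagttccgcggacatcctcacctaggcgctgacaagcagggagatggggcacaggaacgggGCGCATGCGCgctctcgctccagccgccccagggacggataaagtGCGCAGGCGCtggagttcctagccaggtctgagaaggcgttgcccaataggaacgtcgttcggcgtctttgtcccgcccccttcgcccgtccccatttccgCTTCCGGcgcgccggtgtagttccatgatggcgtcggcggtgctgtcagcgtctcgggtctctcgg
Cox7a1: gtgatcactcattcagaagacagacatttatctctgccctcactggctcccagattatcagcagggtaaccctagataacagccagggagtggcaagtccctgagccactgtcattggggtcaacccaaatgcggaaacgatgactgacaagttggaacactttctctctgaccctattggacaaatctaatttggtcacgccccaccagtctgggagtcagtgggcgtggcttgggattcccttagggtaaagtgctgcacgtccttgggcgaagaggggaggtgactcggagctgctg
Sdhd: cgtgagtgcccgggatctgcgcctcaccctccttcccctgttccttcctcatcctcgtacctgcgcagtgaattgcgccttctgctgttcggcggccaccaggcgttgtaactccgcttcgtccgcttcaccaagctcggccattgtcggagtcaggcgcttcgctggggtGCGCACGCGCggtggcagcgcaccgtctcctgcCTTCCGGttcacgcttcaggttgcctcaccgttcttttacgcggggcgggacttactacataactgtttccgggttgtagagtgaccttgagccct

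ATP synthase makes the ATP, and its alpha and beta subunits had the highest CPM of the family, not corrected for length. Atp5b, the catalytic beta subunit, had 1108, 1286, 2118, 1828, 1011 and 1043 CPM in Arf6-null replicates 1 to 6, against 1130, 1198, 938, 1006, 883 and 941 CPM in wild type replicates 1 to 6. Arf6-null replicates 3 and 4 stood far above the rest, replicate 2 lay above the wild type range and the other 3 lay inside it. The log2 fold change was 0.46 with a standard error of 0.20 (edgeR adjusted p = 0.178). Atp5a1, the alpha subunit, had 711 to 852 CPM in Arf6-null tumors and 637 to 728 CPM in wild type tumors, with 5 of 6 Arf6-null libraries above the wild type range (log2 fold change 0.20, edgeR adjusted p = 0.169). Atp5c1, the gamma subunit of the central stalk, had 205 to 278 CPM in Arf6-null tumors and 199 to 227 CPM in wild type tumors, with replicate 5 alone of the Arf6-null tumors inside the wild type range (log2 fold change 0.21, edgeR adjusted p = 0.159).

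The proton-conducting ring is built from 1 protein encoded by the 3 genes Atp5g1, Atp5g2 and Atp5g3. Atp5g3 was the highest of them, with 189 ± 16.9 CPM in Arf6-null tumors and 170 ± 9.86 CPM in wild type tumors (log2 fold change 0.16, edgeR adjusted p = 0.263). Atp5g1 averaged 60.4 ± 6.46 CPM in Arf6-null tumors and 59.1 ± 5.03 CPM in wild type tumors, and Atp5g2 averaged 47.6 ± 8.50 CPM in Arf6-null tumors and 46.3 ± 6.29 CPM in wild type tumors. Per length the order was Atp5g3, Atp5g2, Atp5g1, at 86.6, 28.4 and 12.3 CPM per kb in Arf6-null tumors and 77.7, 27.6 and 12.03 CPM per kb in wild type tumors. Atp5l, which encodes a membrane subunit and was the lowest tested ATP synthase gene per length, averaged 17.6 ± 2.21 CPM in Arf6-null tumors and 17.5 ± 1.15 CPM in wild type tumors. Atp5s, whose product is an auxiliary coupling factor, was picked out after the values were seen as the lowest log2 fold change under the Atp5 symbols. It averaged 5.47 ± 0.905 CPM in Arf6-null tumors and 7.14 ± 1.64 CPM in wild type tumors (log2 fold change -0.39, edgeR adjusted p = 0.253).

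The subunit genes of some chromosomes stood apart in single libraries together with the other genes of the same chromosome. The level of each gene was taken relative to its own median over the 12 libraries, on the log2 scale, and for subunits also relative to the median of all 73 subunits in that library. The median of the subunits on a chromosome was then set beside the median of other genes there with a mean of at least 10 CPM. On chromosome 10 the median of 5 subunits, Atp5b, Atp5d, Ndufa12, Ndufs7 and Uqcr11, was 0.78 in Arf6-null replicate 3 and 0.67 in Arf6-null replicate 4, where the median of 498 other genes was 0.64 and 0.44. On chromosome 13 the median of 6 subunits, Cox7c, Ndufs4, Ndufs6, Sdha, Uqcrb and Uqcrfs1, was 0.48 in wild type replicate 4, where that of 372 other genes was 0.41. On chromosome 15, with Atp5g2, Cox6c, Ndufa6 and Ndufb9, wild type replicate 1 was at 0.33 for the subunits and 0.34 for 421 other genes.

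This was not so on every chromosome. On chromosome 6 the median of Ndufa4, Ndufa5, Ndufa9 and Ndufb2 was 0.03 in Arf6-null replicate 4 and 0.08 in Arf6-null replicate 5, where 512 other genes were at 0.30 and 0.25. In 8 combinations of chromosome and library the other genes reached at least 0.2, and the subunit median was above 0 in all 8. Over 192 combinations of 16 chromosomes with at least 3 subunits and 12 libraries, which share libraries and depth, Pearson's r was 0.69 and Spearman's rho 0.38, and without chromosome 10 they were 0.50 and 0.32. DNA copy number was not measured in these files. The chromosomes and the members named here were picked out after the values were seen.

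**Figure D4:**
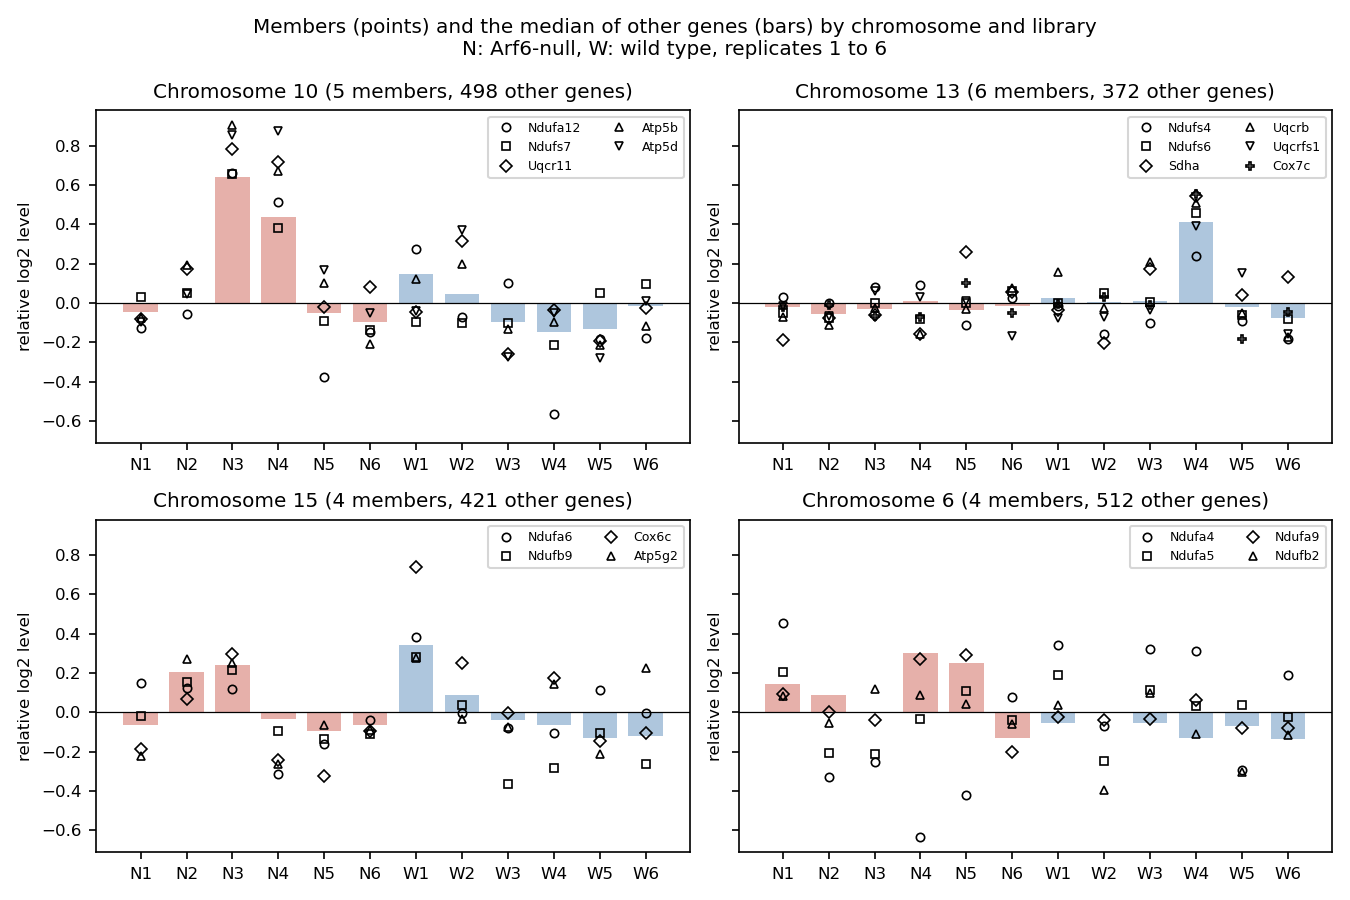
Level relative to each gene's median over the 12 libraries (log2) by library for chromosomes 10, 13, 15 and 6. Points are subunit genes, also taken relative to the median of all 73 subunits in that library. Bars are the median of other genes of the chromosome, without that second step. Arf6-null libraries N1 to N6 lie left of wild type libraries W1 to W6. Points and bars are high together on chromosome 10 in N3 and N4 and on chromosome 13 in W4.

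The largest positive fold changes of ATP synthase and complex III were those of chromosome 10 genes. Atp5d, the delta subunit of the central stalk, had 178, 190, 336, 345, 174 and 191 CPM in Arf6-null replicates 1 to 6, against 165, 222, 139, 170, 138 and 168 CPM in wild type replicates 1 to 6, with replicates 3 and 4 of the Arf6-null tumors alone above the wild type range (log2 fold change 0.50, edgeR adjusted p = 0.177). Uqcr11, a small subunit of complex III, reached 120 and 116 CPM in the same 2 Arf6-null libraries, where the other 4 had 57.1 to 78.4 CPM and wild type tumors had 52.6 to 79.9 CPM (log2 fold change 0.46, edgeR adjusted p = 0.162). The 6 tested subunits of the chromosome, the 5 above and Ndufa4l2, had a median log2 fold change of 0.42, against 0.12 for 778 other genes. With the chromosome medians of each library as offsets, the log2 fold change was 0.23 for Atp5b and 0.24 for Uqcr11.

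Library by library, the family was lower in 1 Arf6-null tumor than in the other 5. The median over the 73 subunits of the relative log2 level was 0.12, 0.07, 0.07, 0.10, -0.19 and 0.17 in Arf6-null replicates 1 to 6, against -0.05, -0.04, -0.07, 0.00, -0.07 and -0.08 in wild type replicates 1 to 6. In this measure 5 Arf6-null libraries lay above all wild type libraries and replicate 5 lay below them all. Replicate 5 was the lowest of the 12 libraries for 31 of the 73 subunits, and Arf6-null replicate 1 was the highest for 21. Arf6-null replicate 5 was also the deepest library, with 45688253 counts, and replicate 1 the shallowest, with 21007954, and the part of depth in these levels was not tested. The summed level of all subunits was 9412 ± 927 CPM in Arf6-null tumors and 8261 ± 323 CPM in wild type tumors, a ratio of 1.14, with sums of 7747 to 10333 CPM in Arf6-null tumors and 7936 to 8687 CPM in wild type tumors. This sum weighs abundant genes most, and Atp5b alone averaged 1399 CPM in Arf6-null tumors and 1016 CPM in wild type tumors. The highest sums, 10333 and 10224 CPM, were in Arf6-null replicates 3 and 4, where Atp5b was also highest.

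**Figure D5:**
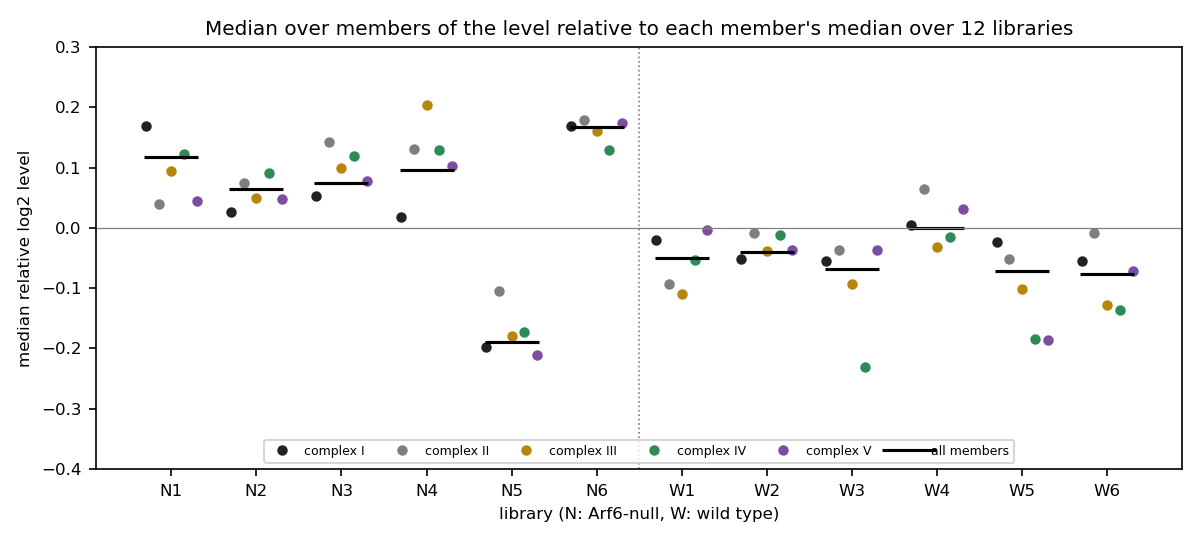
Median over subunits of the log2 level relative to each subunit's median over the 12 libraries, for each complex (points) and for all 73 subunits (dashes), Arf6-null libraries N1 to N6 left of wild type libraries W1 to W6. The dash for N5 is lowest at -0.19 and those of the other 5 Arf6-null libraries are at 0.07 to 0.17.

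Genes that work with the chain were followed as lists. Of the mitochondrially encoded subunits, 7 of 13 passed the count filter, and 6 of those had a positive log2 fold change. Why the genes that failed the filter had few counts was not tested, and how multimapped reads were treated is not given in the sources used here. By edgeR mt-Nd6 alone was called, as higher, beside 0.586% of all tested genes. It averaged 18.1 ± 2.64 CPM in Arf6-null tumors and 9.04 ± 1.37 CPM in wild type tumors, without overlap (log2 fold change 1.001, SE 0.14, edgeR adjusted p = 0.0138), and it was called in all 12 leave-one-out fits. mt-Nd6 lies on the strand opposite to most mitochondrial genes, and the strand setting of the counting is not given in the sources used here. mt-Cytb, the catalytic core of complex III, averaged 4719 ± 1090 CPM in Arf6-null tumors and 3555 ± 672 CPM in wild type tumors (log2 fold change 0.41, edgeR adjusted p = 0.191).

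By edgeR none of 55 tested assembly factors was called, and 7 had an unadjusted p under 0.05, all higher, beside 11.0% of all tested genes higher. DESeq2 called 6 higher, beside 5.21% of all genes it tested, and limma-voom 0. Positive log2 fold changes were found for 6 of 17 tested factors of complex I, 3 of 4 of complex II, 4 of 6 of complex III, 18 of 24 of complex IV and 3 of 4 of ATP synthase. Higd1a, a hypoxia-induced factor that acts on complex IV, averaged 47.2 ± 15.6 CPM in Arf6-null tumors and 25.3 ± 7.97 CPM in wild type tumors (log2 fold change 0.90, edgeR adjusted p = 0.0803). Cycs, which encodes cytochrome c, averaged 68.6 ± 18.8 CPM in Arf6-null tumors and 46.0 ± 8.52 CPM in wild type tumors (log2 fold change 0.58, edgeR adjusted p = 0.104).

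Among enzymes of the citric acid cycle 13 of 17 had a positive log2 fold change with a median of 0.10, among protein import genes 11 of 12 with a median of 0.15, and among ADP, ATP and phosphate carriers 6 of 6 with a median of 0.18. By edgeR none of these 35 genes was called. At an unadjusted p under 0.05, 7 were higher and 0 lower, beside 11.0% and 12.4% of all tested genes. DESeq2 called Pdhb and Tomm40 higher and limma-voom Tomm40, beside 5.21% and 2.98% of the genes they tested. Tomm40, the import pore of the outer membrane, came closest, with 107 ± 17.4 CPM in Arf6-null tumors and 75.5 ± 6.99 CPM in wild type tumors and no overlap (log2 fold change 0.50, edgeR adjusted p = 0.0550). Of 14 tested regulators of mitochondrial biogenesis, 8 were positive and none was called by edgeR. At an unadjusted p under 0.05, 1 was lower, Ppargc1b, beside 12.4% of all tested genes. Its log2 fold change was -1.03 (edgeR adjusted p = 0.111), on 6 to 51 counts a library. DESeq2 called Ppargc1b lower, beside 6.63% of the genes it tested, and limma-voom did not. Ppargc1a, the PGC-1alpha gene, averaged 1.01 ± 1.18 CPM in Arf6-null tumors and 2.55 ± 1.62 CPM in wild type tumors, with overlap (log2 fold change -1.33, edgeR adjusted p = 0.325), and the brown fat gene Ucp1 had at most 2 counts in any library.

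Glycolysis enzymes, measured for contrast, differed by more: their median log2 fold change was 0.86 over 16 tested identifiers, 15 of them positive. By edgeR 3 were called higher in Arf6-null tumors, beside 0.586% of all tested genes. DESeq2 and limma-voom each called 10 higher and 1, Pfkm, lower, beside 5.21% and 2.98% of genes higher. Gpi1 averaged 828 ± 196 CPM in Arf6-null tumors and 433 ± 78.0 CPM in wild type tumors (log2 fold change 0.94, edgeR adjusted p = 0.0346). Tpi1 averaged 993 ± 267 CPM in Arf6-null tumors and 488 ± 109 CPM in wild type tumors (log2 fold change 1.02, edgeR adjusted p = 0.0435). Whether the difference between glycolysis and the respiratory chain exceeds that between other lists was not tested.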

How the data were processed

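Per the labels' protocols, the 12 tumors' RNA was purified by a Direct-zol kit and sequenced from TruSeq Stranded mRNA libraries. The submitters' processing notes name STAR 2.7.3a, featureCounts 1.6.3, DESeq2 1.26.0 and the build GRCm38 (mm10); how strand and multimapped reads were treated, and which annotation was used, is not given in the sources used here. Raw read counts per Ensembl gene identifier were deposited by the authors as whole numbers without normalization, and each column was assigned by the library name in the sample title. GENCODE M21 of GRCm38 named 55141 of 55487 identifiers, and 22114 had no read in any library. Members and lists were chosen with earlier results of these data known.

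Genes were filtered with filterByExpr (minimum count 10), which left 16225 genes with at least 99.82% of the counts of each library, scaled by TMM and tested with the quasi-likelihood test of edgeR 4.0.16 with robust dispersions in R 4.3.3, Benjamini-Hochberg adjusted over all of them at a threshold of 0.05. The F statistic gave the standard errors. Alternatives used DESeq2 1.42.0, limma 3.58.1 (voom with quality weights), other scalings, filters and covariates, and each library left out in turn. Relative log2 levels used log2(CPM + 0.1). Isoform shares were computed per exon length as well as from CPM, and the shares per length are given. The procedure was tested on simulated data first, where edgeR called 45.4% of the 2-fold changes put in, so smaller changes may be missed. The changed genes were drawn from all tested genes, and the share for genes with the level and spread of the subunits was not measured. Of the 85 members, 26 share exon bases with a gene on the opposite strand (Ndufb2 with Braf, for instance) and 6 with one on the same strand, so their reads may be split. Genes named were those past the threshold, the 2 with the smallest p in each complex, paralogous isoforms, core subunits, and the highest and lowest per length in each complex. Others are said to be picked out later.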

Additional observations from a re-analysis of the deposited data

Results flagged for a closer look

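In groups of 6 libraries, the gap of the highest or lowest library to its neighbour was compared with the range of the group, for log2(CPM + 1) of the named subunits and for the medians by library. Of 84 sets of 6 values, 6 had a library farther out than Dixon's 95% critical value for 6 values, and chance gives about 1 in 20, so the number is not far above chance. Arf6-null replicate 5 was the low library in 4 of the 6, of which 3 are medians over partly the same subunits. Ndufa7 was at 6.43 there, with the other Arf6-null libraries at 6.74 to 6.86. The median relative log2 level of all subunits was -0.19 in that library, with the others at 0.07 to 0.17. For complex IV it was -0.17, with the others at 0.09 to 0.13, and for ATP synthase it was -0.21, with the others at 0.05 to 0.17.

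Ndufv3 was highest in Arf6-null replicate 1 at 6.44, with the others at 6.13 to 6.21. Cox8b was highest in Arf6-null replicate 4 at 0.45, with the others at 0.00 to 0.14, which rests on 11 counts in that library.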

How the results depend on the processing

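Of 721 values of 33 named subunits over 22 alternatives, 648 kept their direction and their side of the threshold. No paired analysis was possible because the labels give no number shared between the genotypes, although the design text calls the tumors matched. The median log2 fold change of all subunits stayed within 0.05 to 0.15. The number of subunits called higher was 0 under upper-quartile scaling, a minimum of 10 CPM in 6 libraries, no minimum, a Y-linked covariate, a muscle covariate, chromosome offsets, or without the 3 muscle-rich wild type libraries, 11 with DESeq2, 3 with limma-voom, 6 at a threshold of 0.1 and 0 to 3 with 1 library left out. Those called lower were 2 with DESeq2, 1 at 0.1 and 0 to 1 with 1 library left out. Over all genes the calls were 2241 with DESeq2, 931 with limma-voom, 30 with the Y-linked covariate, 35 without the muscle-rich libraries, 21 with the muscle covariate, 1359 at 0.1 and 25 to 766 with 1 library left out. The muscle and chromosome alternatives were chosen after seeing the data.

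The direction turned in 11 subunits, none of them called by edgeR with all libraries; of these Cox6a2 was called lower by DESeq2 and on leaving out wild type replicate 2. Upper-quartile scaling gave log2 fold changes of -0.020 for Atp5g1, -0.010 for Atp5g2, -0.019 for Ndufv1, -0.017 for Uqcrfs1 and -0.044 for Atp5l. The 10 CPM filter gave -0.011 for Atp5g1, -0.012 for Ndufv1, -0.0069 for Uqcrfs1 and -0.038 for Atp5l. Ndufs1 was 0.0011 with DESeq2 and 0.025 without a filter, and Uqcrfs1 was -0.022 with the Y-linked covariate. Without the muscle-rich libraries Cox6a1 was -0.054, Ndufa4l2 -0.18, Atp5g2 -0.037 and Sdha 0.13. With the muscle covariate Cox6a2 was 0.76, Cox6a1 -0.12, Cox8a -0.013, Ndufa4l2 -0.18, Atp5g2 -0.072, Ndufv1 -0.033, Sdha 0.14 and Atp5l -0.012. Chromosome offsets gave -0.024 for Atp5g1, 0.050 for Sdha and -0.014 for Atp5l. With 1 library left out, the ranges that crossed 0 were -0.028 to 0.014 for Ndufs1, -0.041 to 0.048 for Atp5l, -0.022 to 0.097 for Atp5g2, -0.0037 to 0.080 for Atp5g1, -0.011 to 0.066 for Ndufv1, -0.10 to 0.066 for Sdha and -0.0074 to 0.13 for Uqcrfs1. The cause of these shifts was not tested. Depth limits the low isoforms: Cox6a2 had 1 to 1470 counts a library and Cox8b 0 to 189.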

Other observations

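Besides the 85 subunit genes, 12 genes of other biotypes had symbols that match the same rule, and 11 of them, annotated as processed pseudogenes, were near 0. The remaining one, Ndufb1-ps, is annotated as a long non-coding RNA although its symbol carries the name of the complex I subunit Ndufb1, and it had 58.9 to 84.8 CPM in Arf6-null tumors and 52.2 to 68.1 CPM in wild type tumors, with overlapping groups. This level lies within the range of the coding subunits of complex I.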
